A study of Mus musculus with 6 samples.

Results

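The genes described here control the passage of a cell from G1 into DNA synthesis: the D-type cyclins Ccnd1, Ccnd2 and Ccnd3, the E-type cyclin Ccne1, the kinases Cdk4 and Cdk6, the inhibitors Cdkn1a (p21), Cdkn1b (p27) and Cdkn2c (p18), and the transcription factor gene Myc. They were taken by name, as 10 of the 23398 genes listed, and all 10 passed the filter on low values that left 10682 genes for testing. The cells were bone marrow derived dendritic cells (BMDC) of mice, and nothing in the labels gives strain, sex or age. One group of 3 libraries came from cells given Ca(OH)2 nanoparticles for 12 hours, and the other group of 3 from cells given vehicle for the same time. Both groups were grown in DMEM with fetal bovine serum and antibiotics, and no growth factor is named for the culture. No label says whether libraries of a group came from separate mice or cultures, so p-values measure the spread between these libraries, which may be technical.

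A cell leaves G1 when cyclin D with CDK4 or CDK6, and then cyclin E with CDK2, phosphorylate the retinoblastoma protein and free E2F factors to switch on the genes of DNA synthesis. INK4 proteins such as p18 bind CDK4 and CDK6, while the CIP/KIP proteins p21 and p27 bind cyclin and kinase together, and p21 is a classical target of p53. MYC, paired with MAX on the E-box CACGTG, drives growth genes and several G1 regulators, and proteins of the MXD family compete with it for MAX. In myeloid cultures, dividing precursors carry this machinery and mature dendritic cells largely leave the cycle.

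Promoters of the kinase genes of both steps are shown because each carries the letters of one of these factors. RefSeq promoter windows on build GRCm38.p6, from 250 bases before a start site to 50 after it, were at hand for 7 of the 10 genes, all but Ccnd1, Ccnd2 and Myc. Capitals mark CACGTG in the Cdk4 window (plus strand, chr10:127063285-127063584), and the E2F-type letters (TTCCCGC, the variant TTGGCGC and the variant TTCGCGC), searched on both strands, in the window of the cyclin E partner Cdk2 (minus strand, chr10:128705002-128705301).
Cdk4: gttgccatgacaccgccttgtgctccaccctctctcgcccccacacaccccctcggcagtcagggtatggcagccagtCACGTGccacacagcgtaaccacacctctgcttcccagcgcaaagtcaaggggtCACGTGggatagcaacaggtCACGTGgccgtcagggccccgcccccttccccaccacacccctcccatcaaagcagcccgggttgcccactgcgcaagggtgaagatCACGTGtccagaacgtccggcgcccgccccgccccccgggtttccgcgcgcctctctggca
Cdk2: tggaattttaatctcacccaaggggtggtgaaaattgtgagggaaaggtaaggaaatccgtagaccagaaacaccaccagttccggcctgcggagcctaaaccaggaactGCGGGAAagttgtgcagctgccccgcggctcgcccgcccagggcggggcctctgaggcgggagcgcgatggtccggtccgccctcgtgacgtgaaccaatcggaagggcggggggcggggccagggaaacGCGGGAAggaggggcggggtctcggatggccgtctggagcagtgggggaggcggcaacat
The Cdk4 window holds CACGTG at 4 places, which begin 172, 118, 98 and 11 bases before the start site. At least 1 CACGTG stands in 7.15% of the 32851 windows of the table, and 4 or more in 0.0244%; among windows of tested genes the shares are 10.5% and 0.0395%. The Cdk2 window holds the E2F-type letters at 2 places, beginning 140 and 10 bases before the start, and 8.07% of all windows, or 14.3% of those of tested genes, hold them at least once. Of the other members, Cdk6 has CACGTG once, and Cdkn2c has it once in the window of one start and the E2F-type letters once in that of another. Neither word was found in the windows of Ccnd3, Ccne1, Cdkn1a and Cdkn1b. A match is a string of letters and not a shown binding site.

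Library totals, recovered from the deposited values, were 17314165 to 22005692 reads. Nanoparticle library 1 stood apart: over the tested genes its log2 values correlated at 0.942 and 0.928 with nanoparticle libraries 2 and 3, against 0.9895 between those 2 and 0.993 to 0.994 among the vehicle libraries, so values without it are given beside results that it moved most. Values are in FPKM, which relates reads to gene length and to 1 scale per library. The length that fitted the values was that of all annotated exons merged, 8775 bases for Ccnd3 and 3249 for Cdk4, for example. A transcript can be shorter than this, and the level of its gene is then understated. Levels can therefore be compared only roughly between genes. That scale did not follow the recovered totals. For each kilobase, 1 FPKM stood for 19.9, 19.8 and 20.9 reads in vehicle libraries of 17728651, 17314165 and 18252743 reads. In nanoparticle libraries 1 to 3 it stood for 16.3, 16.5 and 19.3 reads, at totals of 17818901, 18478596 and 22005692 reads. Of 10 tested dendritic cell markers 1 was higher and 3 were lower at an adjusted p under 0.05 in the test defined below. Of all tested genes 17.0% were higher and 16.2% lower. Itgax was at 442 to 456 FPKM with vehicle and 248, 398 and 375 FPKM with nanoparticles. Cd74 was at 3902 to 4264 FPKM with vehicle and 2269.6, 4790 and 5273 FPKM with nanoparticles. Flt3 was at 0.0793 FPKM or less throughout. Cd209a was at 5.17 to 6.21 FPKM with vehicle and at 0, 0.0763 and 0 with nanoparticles, Clec10a at 5.63 to 7.62 and 0.507 to 1.04 FPKM, and Zbtb46 at 3.66 to 4.15 and 1.73 to 2.76 FPKM. In the other direction, Irf8 was at 8.47 to 8.82 FPKM with vehicle and 18.4 to 24.1 FPKM with nanoparticles. Xcr1, too low to be tested, was at 0.0902 to 0.181 and 0.711 to 2.21 FPKM. Batf3 was at 8.55 to 9.15 FPKM with vehicle and 7.02, 13.8 and 15.1 FPKM with nanoparticles. The dendritic list, in which Cd74 and the H2 genes are the largest terms, summed to 6324 to 6755 FPKM with vehicle and to 3630.4, 7312 and 7972 FPKM in nanoparticle libraries 1 to 3. Macrophage markers summed to 1139.9 to 1291 FPKM with vehicle and to 1912, 1502 and 1559.8 FPKM with nanoparticles. Of these 12 markers 4 were higher and 4 lower, beside 17.0% and 16.2% of all genes. Adgre1 was at 62.9 to 68.3 FPKM with vehicle and 276, 141 and 132 FPKM with nanoparticles. The 9 listed lymphocyte markers summed to at most 0.442 FPKM in any library. The 10 markers of proliferating cells summed to 65.1 to 73.3 FPKM in vehicle libraries and to 15.0, 16.3 and 17.02 FPKM in nanoparticle libraries 1 to 3. Of these, 9 were past the threshold, all lower, beside 16.2% of all genes lower. The changes below stand beside these differences in marker sums, whose part in the results was not tested. In bulk RNA, fewer cells of a type and less RNA per cell cannot be told apart.

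With nanoparticles, 6 of the 10 genes differed from vehicle: Ccnd2 and Cdkn1a were higher, and Ccnd3, Ccne1, Cdkn2c and Myc were lower. The test was limma on log2(FPKM + 1) over all tested genes at a Benjamini-Hochberg adjusted p under 0.05, written below as adjusted p, which called 33.2% of genes in either direction, 17.0% higher and 16.2% lower. The largest change was the fall of Cdkn2c to 0.118 times its vehicle level, followed by Myc at 0.258 times. Groups did not overlap in 8 of the 10 genes, beside 52.1% of all tested genes, with 3 members higher (25.9% of all genes) and 5 lower (26.2%). Without nanoparticle library 1, 9 of the 10 genes were past the threshold, Cdk4 being the exception, but so were 64.8% of all genes: 3 members were higher, beside 34.3% of genes, and 6 lower, beside 30.5%.

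**Figure D1:**
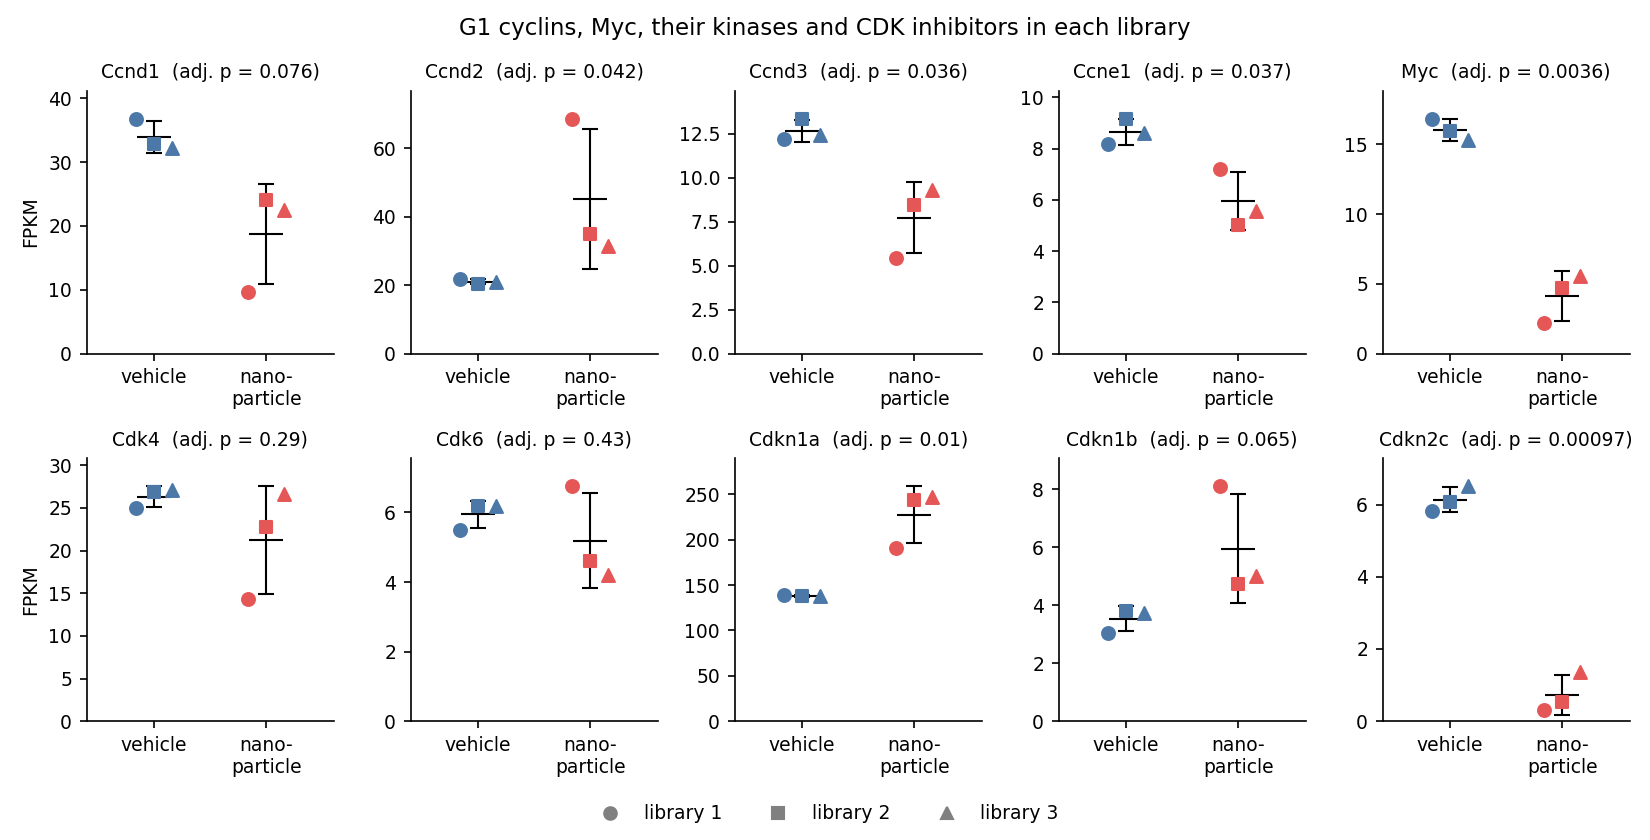
FPKM of each gene (vertical axes from 0) in the 3 vehicle libraries (blue) and 3 nanoparticle libraries (red); the bar is the group mean with its SD, and p is limma's adjusted p. The groups are apart in every panel except Cdk4 and Cdk6, and nanoparticle library 1 (circle) lies away from the other 2 in most panels.

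Ccnd1 encodes cyclin D1, the D-type cyclin most tied to growth factor signalling. Its gene is at chr7:144929931-144939925, minus strand (GENCODE M21, GRCm38). It held 36.8, 32.8 and 32.3 FPKM in the vehicle libraries and 9.72, 24.1 and 22.5 FPKM in the nanoparticle libraries. All nanoparticle libraries were below all vehicle libraries, library 1 by far the most. The means were 33.9 ± 2.47 and 18.7 ± 7.86 FPKM (SD, n = 3 libraries), with a log2 difference of -0.92 (SE 0.328) that did not pass (limma adjusted p = 0.0762). Without nanoparticle library 1 the difference was smaller, -0.53, and past the threshold (limma adjusted p = 0.00108).

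Ccnd2 encodes cyclin D2, an alternative partner of the same kinases, from chr6:127125162-127152193, minus strand. It held 21.7, 20.3 and 20.8 FPKM with vehicle and 68.6, 34.99 and 31.6 FPKM with nanoparticles. Every nanoparticle library exceeded every vehicle library, and library 1 was the highest by far. The rise, from 20.96 ± 0.711 to 45.04 ± 20.5 FPKM (SD, n = 3 libraries), was 0.98 ± 0.288 on the log2 scale (SE, limma adjusted p = 0.0417), and 0.64 without nanoparticle library 1 (limma adjusted p = 2.6e-04). The call was lost without any single vehicle library (limma adjusted p = 0.112 to 0.125) and without nanoparticle library 2 (0.0641).

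Ccnd3, the gene of cyclin D3, is at chr17:47505051-47599691, plus strand. It fell from 12.2, 13.4 and 12.4 FPKM in vehicle libraries to 5.44, 8.46 and 9.32 FPKM in nanoparticle libraries, again with library 1 at the extreme and no overlap. The log2 change was -0.67 ± 0.188 (SE, limma adjusted p = 0.0358), and -0.47 without nanoparticle library 1. This call was likewise lost without any single vehicle library (limma adjusted p = 0.1005 to 0.124) and without nanoparticle library 2 (0.0648). A pseudogene, Ccnd3-ps, shares a stretch of 417 bases with Ccnd3 transcripts at 96.6% identity, and how reads common to both were counted is not given in the sources used here.

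In the deposited values, the summed level of the 3 D-type cyclins overlapped between groups while the share of each differed. Their sum was 70.7, 66.5 and 65.5 FPKM with vehicle and 83.7, 67.5 and 63.3 FPKM with nanoparticles, with only library 1 above the vehicle range. This sum depends on how libraries are scaled and was not computed under another scaling. With read-total scaling the log2 changes of Ccnd1, Ccnd2 and Ccnd3 were -1.25, 0.65 and -0.98. Ccnd1 supplied 52.03%, 49.3% and 49.2% of this sum in vehicle libraries and 11.6%, 35.6% and 35.5% in nanoparticle libraries. Ccnd2 supplied 30.7%, 30.6% and 31.8% with vehicle and 81.9%, 51.8% and 49.8% with nanoparticles. By FPKM the leading D-type transcript was thus Ccnd1 in each vehicle library and Ccnd2 in each nanoparticle library. The ratio of Ccnd2 to Ccnd1, which does not depend on how libraries are scaled, was 0.590, 0.619 and 0.646 with vehicle and 7.06, 1.45 and 1.40 with nanoparticles. These shares and ratios are descriptions without a test, and their sizes depend on the gene lengths used.

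**Figure D2:**
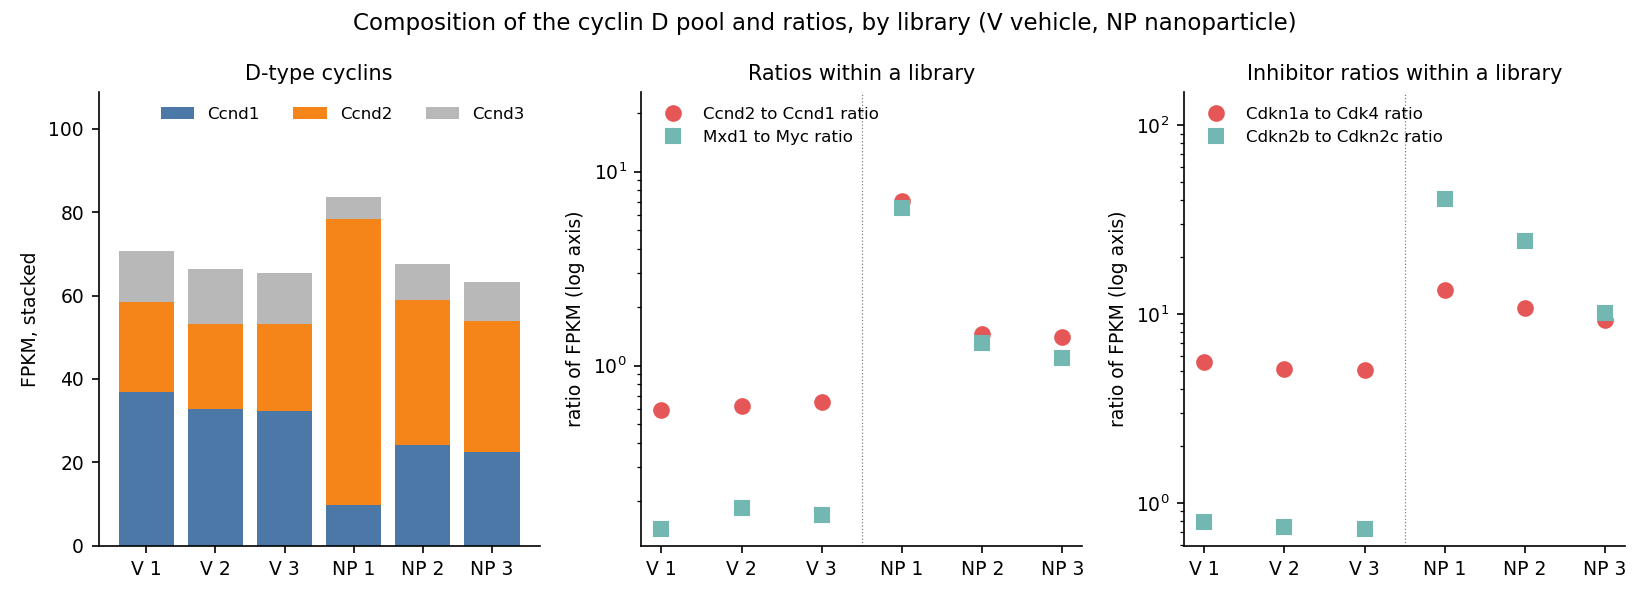
Left, stacked FPKM of the 3 D-type cyclins in each library; middle and right, ratios of 2 genes within each library on log axes, with vehicle (V) left and nanoparticle (NP) right of the dotted line. Ccnd2 is the largest block in each nanoparticle bar, and the 4 ratios are higher in all nanoparticle libraries than in any vehicle library.

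Ccne1 encodes cyclin E1, which activates CDK2 at the G1/S border. The gene is at chr7:38097984-38107534, minus strand. It held 8.18, 9.17 and 8.62 FPKM with vehicle and 7.22, 5.04 and 5.58 FPKM with nanoparticles. Here nanoparticle library 1 was the one nearest to vehicle. The log2 change was -0.49 ± 0.138 (SE, limma adjusted p = 0.0375), and -0.61 without library 1 (limma adjusted p = 6.2e-04). Leaving out any one of the other 5 libraries ended the call (limma adjusted p = 0.0905 to 0.139). The second E-type cyclin, Ccne2, fell further, from 3.70 ± 0.121 to 0.841 ± 0.171 FPKM (SD, n = 3 libraries, log2 change -1.36, limma adjusted p = 3.3e-04). The ratio of Ccne1 to Ccne2 was 2.14 to 2.56 in the vehicle libraries and 6.71 to 7.47 in the nanoparticle libraries, where library 1 lay between the other 2.

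Neither D-cyclin kinase passed the test. Cdk4 (chr10:127063534-127067920, plus strand) held 24.98, 26.9 and 27.1 FPKM with vehicle and 14.3, 22.8 and 26.6 FPKM with nanoparticles. Only nanoparticle library 1 was far below vehicle, and library 3 lay within the vehicle range. The log2 difference was -0.34 with a 95% interval from -0.88 to 0.20 (limma adjusted p = 0.292), and -0.09 without library 1. Cdk4 shares 641 exonic bases with Tspan31 on the opposite strand (19.9 to 27.6 FPKM), and Ccnd1 shares 1100 with LTO1 (2.64 to 5.48 FPKM). Ccnd3 shares 361 with Bysl, also opposite, at 6.39 to 6.60 FPKM with vehicle and 2.91, 4.44 and 5.82 FPKM with nanoparticles. Ccnd2 shares 368 with 9330179D12Rik, Cdk6 368 with Gm17590 and Cdkn1a 273 with AC167363.2, each at most at 1.92 FPKM. Strand-specific counting is not given in the sources used here.

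Cdk6 is at chr5:3341485-3531008, plus strand. It held 5.50, 6.17 and 6.18 FPKM with vehicle and 6.76, 4.60 and 4.21 FPKM with nanoparticles. Library 1 was the highest of all 6 and libraries 2 and 3 the lowest, so the group mean hides opposite values. The log2 difference was -0.19 with a 95% interval from -0.59 to 0.21 (limma adjusted p = 0.434), and without library 1 it was -0.36 and past the threshold (limma adjusted p = 0.00755). Cdk4 made up 81.3% to 82.0% of the Cdk4 and Cdk6 sum in vehicle libraries and 67.9%, 83.2% and 86.3% in nanoparticle libraries 1 to 3.

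Cdkn1a was the most abundant of the 10 genes in every library. It is at chr17:29090976-29100727, plus strand, and encodes p21, which restrains cyclin-CDK2 and also binds PCNA. Vehicle libraries held 138.7, 137.7 and 137.6 FPKM, a narrow range, and nanoparticle libraries held 191, 244 and 248 FPKM. All nanoparticle libraries were higher, library 1 the least. The rise was 1.65-fold, from 138.0 ± 0.581 to 227 ± 31.6 FPKM (SD, n = 3 libraries, log2 change 0.71, SE 0.141, limma adjusted p = 0.0105). Without vehicle library 1, 2 or 3 the call was narrowly lost at nearly the same size (log2 change 0.71 in each, limma adjusted p = 0.0533 to 0.0582). Relative to Cdk4, Cdkn1a went from 5.07 to 5.55 in vehicle libraries to 13.4, 10.7 and 9.31 in nanoparticle libraries.

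Cdkn1b, which encodes p27, is at chr6:134920401-134925513, plus strand. Its levels were low, at 3.05, 3.81 and 3.75 FPKM with vehicle and 8.10, 4.71 and 5.02 FPKM with nanoparticles. The groups did not overlap, but library 1 made much of the difference, and the test was not passed (log2 difference 0.59, SE 0.198, limma adjusted p = 0.0652). Without library 1 the log2 difference was 0.37 (limma adjusted p = 0.0153). The ratio of Cdkn1a to Cdkn1b overlapped between groups, at 36.1 to 45.4 with vehicle and 23.6, 51.7 and 49.4 with nanoparticles. Skp2, whose protein marks p27 for destruction, fell from 1.23 ± 0.182 to 0.473 ± 0.137 FPKM (SD, n = 3 libraries, log2 change -0.60, limma adjusted p = 0.0106), a call lost without vehicle library 2 (0.0506). Foxo3, a known activator of the p27 gene, fell from 8.64 ± 0.164 to 4.57 ± 1.04 FPKM (SD, n = 3 libraries, limma adjusted p = 0.0083).

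Cdkn2c (chr4:109660876-109667189, minus strand) encodes the INK4 protein p18. It held 5.83, 6.07 and 6.51 FPKM with vehicle and 0.296, 0.517 and 1.35 FPKM with nanoparticles, which rest on 312, 323 and 365 reads against 13, 23 and 70. All nanoparticle libraries were far below vehicle, and their own spread was wide in proportion. The log2 change was -2.10 ± 0.223 (SE, limma adjusted p = 9.7e-04), and it understates the fall of so low a gene, since a pseudocount of 0.1 gave -3.14. Of its INK4 relatives, Cdkn2b (p15) rose from 4.60 ± 0.111 to 12.8 ± 0.815 FPKM (SD, n = 3 libraries, log2 change 1.296, limma adjusted p = 2.4e-04), and Cdkn2d (p19) went from 6.31 ± 0.696 to 4.27 ± 0.868 FPKM without passing (log2 difference -0.48, limma adjusted p = 0.0553). Cdkn2d did pass as lower without nanoparticle library 1 (-0.34, limma adjusted p = 0.0226), with the replicate block (0.0474), and under read-total, equal-sum and limma-voom scaling (-0.77, -0.88 and -0.92, limma adjusted p = 0.0078, 0.0028 and 0.0103). Cdkn2b was below Cdkn2c in every vehicle library, at a ratio of 0.725 to 0.787, and above it in the nanoparticle libraries, at 40.7, 24.3 and 10.1.

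Myc is at chr15:61985391-61990374, plus strand. It held 16.8, 15.99 and 15.3 FPKM with vehicle and 2.16, 4.69 and 5.58 FPKM with nanoparticles, on 861 to 912 reads and 96 to 292 reads. The fall was seen in all nanoparticle libraries, most in library 1. From 16.04 ± 0.775 to 4.14 ± 1.77 FPKM (SD, n = 3 libraries), the log2 change was -1.79 ± 0.271 (SE, limma adjusted p = 0.0036), and -1.48 without library 1 (limma adjusted p = 2.2e-05). Myc and Cdkn2c were past the threshold in the same direction in each alternative that tested them.

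**Figure D3:**
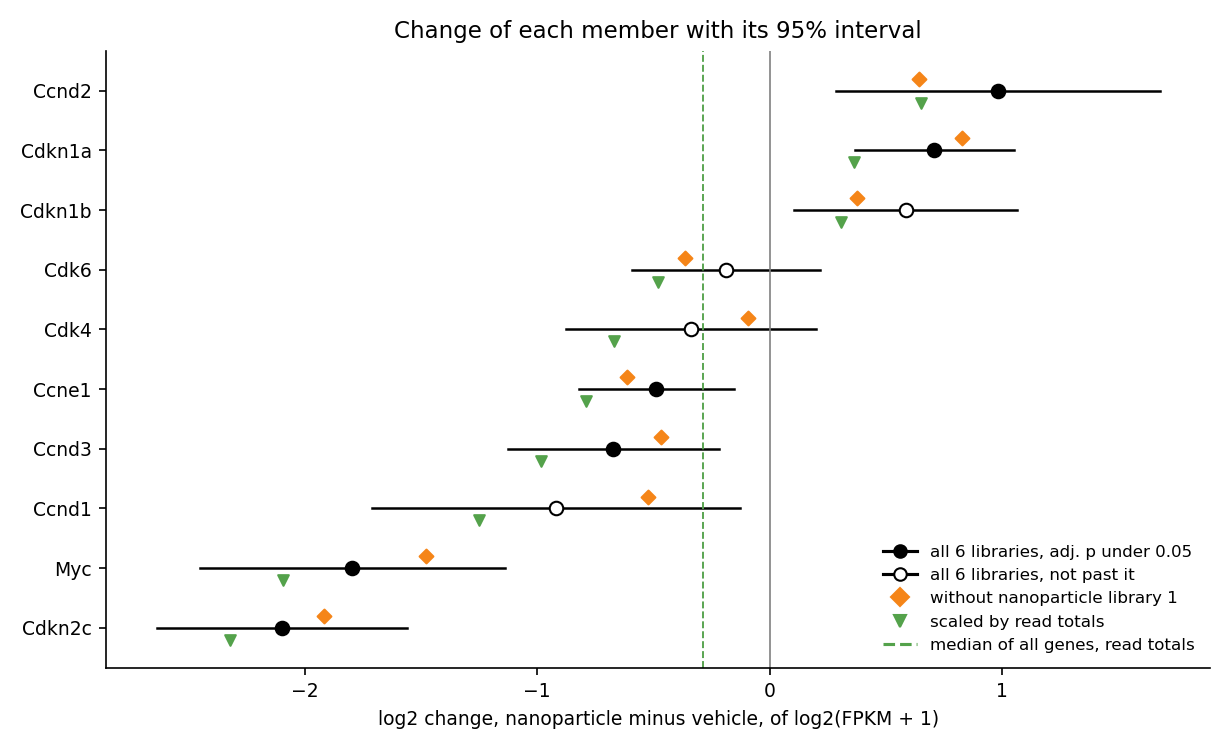
Log2 change of each gene, nanoparticle minus vehicle (circles, filled where adjusted p was under 0.05, with 95% intervals), beside the value without nanoparticle library 1 (diamonds) and with libraries scaled by read totals (triangles; dashed line, median of all genes under that scaling). Myc and Cdkn2c lie farthest from 0 in each of the 3 fits, and the read-total values are shifted to the left throughout.

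Scaling moved the calls of the smaller changes. The deposited values place the median gene at a log2 change of 0.00, and scaling by recovered read totals places it at -0.29. Under that scaling Cdkn1a was at 0.36 (limma adjusted p = 0.0613) and Ccnd2 at 0.65 (limma adjusted p = 0.123), so neither rise passed, while Ccnd1 at -1.25 (limma adjusted p = 0.0192) and Cdk4 at -0.67 (limma adjusted p = 0.0406) did. No member changed sign under any scaling.

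In vehicle cells the order of levels was Cdkn1a, Ccnd1, Cdk4, Ccnd2, Myc, Ccnd3, Ccne1, Cdkn2c, Cdk6 and Cdkn1b, and only Cdkn2c and Cdk6 were neighbours whose libraries overlapped. With nanoparticles it was Cdkn1a, Ccnd2, Cdk4, Ccnd1, Ccnd3, Ccne1, Cdkn1b, Cdk6, Myc and Cdkn2c. Cdk4 and Ccnd1 overlapped there, as did each pair of neighbours from Ccnd3 down to Myc. Myc thus moved from the fifth place to the ninth. Places in both orders depend on the gene lengths used.

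MAX and the MXD proteins set what MYC can bind, and 11 of their listed genes were tested. Of these, 3 were higher and 3 lower, beside 17.0% and 16.2% of all genes. Their median log2 change was -0.35, beside 0.00 for all genes. Without nanoparticle library 1, 5 were higher and 6 lower, beside 34.3% and 30.5% of all genes. Mxd1, an antagonist of MYC known to rise as myeloid cells differentiate, rose from 2.41, 2.93 and 2.60 FPKM to 14.1, 6.17 and 6.12 FPKM (log2 change 1.33, limma adjusted p = 0.0166). Its ratio to Myc was 0.143 to 0.183 with vehicle and 6.50, 1.31 and 1.10 with nanoparticles, so Mxd1 exceeded Myc in every nanoparticle library and in no vehicle library. The Mxd1 call was lost without any single vehicle library (limma adjusted p = 0.05298 to 0.0664) and with equal sums of FPKM (log2 change 0.96, limma adjusted p = 0.0635). Max went from 18.6 ± 0.760 to 25.5 ± 3.13 FPKM (SD, n = 3 libraries, log2 change 0.43, limma adjusted p = 0.0343), which was 0.10 with read-total scaling (limma adjusted p = 0.4897) and -0.0217 with equal sums of FPKM. That call was also lost without any single library other than nanoparticle library 1 (limma adjusted p = 0.0718 to 0.141). Zbtb17, which encodes the MYC partner MIZ1, rose from 4.47 ± 0.378 to 7.36 ± 0.827 FPKM (SD, n = 3 libraries, limma adjusted p = 0.0082), a call lost under read-total scaling (limma adjusted p = 0.0513). Mxd4 fell from 5.17 ± 0.486 to 1.26 ± 0.357 FPKM (limma adjusted p = 7.1e-04), and Mxd3 from 1.70 ± 0.0649 to 0.0923 ± 0.141 FPKM (SD, n = 3 libraries, limma adjusted p = 6.0e-04). Mxi1, chosen after its values were seen, held 5.92, 6.11 and 5.98 FPKM with vehicle and 16.9, 7.18 and 6.98 FPKM with nanoparticles. It did not pass (log2 difference 0.59, limma adjusted p = 0.204). Without nanoparticle library 1 it passed as higher (0.21, limma adjusted p = 0.0260).

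Of 14 tested genes known as MYC targets, 5 passed the test and all of these were lower, beside 16.2% of all genes lower. The list median was -0.29. Without nanoparticle library 1, 9 were lower and 3 higher, beside 30.5% and 34.3% of all genes. Cad, the enzyme that starts pyrimidine synthesis, fell from 9.55 ± 0.754 to 1.71 ± 0.516 FPKM (SD, n = 3 libraries, log2 change -1.98, limma adjusted p = 4.0e-04). Dkc1, of the telomerase and snoRNA complex, fell by 1.31 on the log2 scale (limma adjusted p = 0.0012), the RNA polymerase I subunit Polr1b by 0.78 (limma adjusted p = 0.0026) and the nucleolar Nop58 by 0.69 (limma adjusted p = 0.0023). The other 9 targets did not pass. Among them the nucleolar chaperone gene Npm1, chosen after its values were seen, held 82.2, 84.3 and 85.4 FPKM with vehicle and 51.7, 95.5 and 96.3 FPKM with nanoparticles, so library 1 lay below vehicle and libraries 2 and 3 above. With read-total scaling 9 of the 14 were lower, beside 3694 of all 10781 genes tested under that scaling.

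Downstream of the cyclins, 18 of 20 E2F target genes of S phase were lower and the other 2 did not pass, with a median log2 change of -1.13, beside 16.2% of all genes lower. The count was again 18 without nanoparticle library 1, beside 30.5% of all genes lower. The ribonucleotide reductase genes, which make DNA precursors, were among them: Rrm1 fell from 7.10 ± 0.279 to 1.67 ± 0.0893 FPKM and Rrm2 from 18.1 ± 1.34 to 2.24 ± 0.796 FPKM (SD, n = 3 libraries, limma adjusted p = 1.1e-04 and 2.5e-04). The replication licensing genes Mcm7 and Cdc6 had log2 changes of -1.77 (limma adjusted p = 2.6e-04) and -1.28 (limma adjusted p = 2.9e-04). In these genes nanoparticle library 1 was not the extreme throughout: Rrm1 was at 1.73, 1.72 and 1.57 FPKM in nanoparticle libraries 1 to 3. The E2F-type letters stood in the promoter windows of 10 of the 18 genes of this list that the table holds (55.6%), against 17.0% of tested genes with a window. For the MYC target list, CACGTG stood in the windows of 2 of 12 genes (16.7%), against 12.4% of tested genes with a window. Both are descriptions of letters in 300 bases and were not tested.

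Among 31 tested regulators of the G1/S step outside the 10 genes, 11 were lower and 2 higher, beside 16.2% and 17.0% of all genes. Their median was -0.26. Without nanoparticle library 1, 15 were lower and 7 higher, beside 30.5% and 34.3% of all genes. Ccna2, the cyclin that follows cyclin E, fell from 8.47 ± 0.867 to 0.614 ± 0.410 FPKM (SD, n = 3 libraries, log2 change -2.58, limma adjusted p = 2.9e-04). E2f2 fell from 4.41 ± 0.349 to 0.516 ± 0.361 FPKM (SD, n = 3 libraries, limma adjusted p = 9.3e-04), whereas E2f1 was at 9.48 ± 0.432 and 9.70 ± 1.65 FPKM (limma adjusted p = 0.923). Cdk2, whose promoter is printed above, fell from 4.85 ± 0.188 to 2.53 ± 0.506 FPKM (SD, n = 3 libraries, log2 change -0.74, limma adjusted p = 0.0056). Rb1, the gene of the retinoblastoma protein, fell from 6.02 ± 0.292 to 4.43 ± 0.558 FPKM (SD, n = 3 libraries, limma adjusted p = 0.0420), a call lost without any single library other than nanoparticle library 1 (limma adjusted p = 0.0904 to 0.163). E2f5, which together with Cdkn2b makes up the 2 higher genes and was chosen after its values were seen, rose by 1.42 on the log2 scale (limma adjusted p = 0.0137).

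Cdkn1a is best known as a p53 target, so the p53 pathway was set beside it. Of 19 other tested genes, 4 were higher and 7 lower, beside 17.0% and 16.2% of all genes, with a median log2 change of -0.25. Without nanoparticle library 1, 5 were higher and 8 lower, beside 34.3% and 30.5% of all genes. Trp53 itself was at 14.4 ± 1.31 and 12.8 ± 2.23 FPKM (SD, n = 3 libraries, log2 difference -0.16, limma adjusted p = 0.436). It was past the threshold as lower under read-total (-0.49, limma adjusted p = 0.0306), equal-sum (-0.60, 0.0085) and limma-voom scaling (-0.52, 0.0280), and at -0.05 without nanoparticle library 1 (0.694). Mdm2, the p53 ubiquitin ligase, rose from 37.4, 31.0 and 33.1 FPKM to 124, 59.7 and 51.8 FPKM (log2 change 1.09, limma adjusted p = 0.0448). Without nanoparticle library 1 the change was 0.70 (limma adjusted p = 9.7e-04). The call was lost under read-total scaling (limma adjusted p = 0.115), without any single vehicle library (0.104 to 0.138) and without nanoparticle library 2 (0.0717). Gadd45a, a stress-induced growth arrest gene, rose from 3.68 ± 0.646 to 13.95 ± 2.14 FPKM (SD, n = 3 libraries, limma adjusted p = 6.0e-04). Against these, Trp53inp1 fell by 1.26 (limma adjusted p = 4.5e-04), Sesn1 by 1.45 (limma adjusted p = 6.1e-04) and Sesn2 by 0.89 (limma adjusted p = 8.0e-04) on the log2 scale. Genes of the p53 list thus differed in both directions.

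Upstream, 13 tested genes of growth factor input held 3 higher and 2 lower genes, beside 17.0% and 16.2% of all genes. Their median was 0.01. Without nanoparticle library 1, 4 were higher and 6 lower, beside 34.3% and 30.5% of all genes. Stat5a, which carries the GM-CSF signal, rose from 5.25 ± 0.619 to 20.7 ± 5.05 FPKM (SD, n = 3 libraries, log2 change 1.77, limma adjusted p = 9.2e-04), and the receptor chain Il3ra rose by 0.96 (limma adjusted p = 0.0016). Foxo4 fell by 0.63 on the log2 scale (limma adjusted p = 0.0088).

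**Figure D4:**
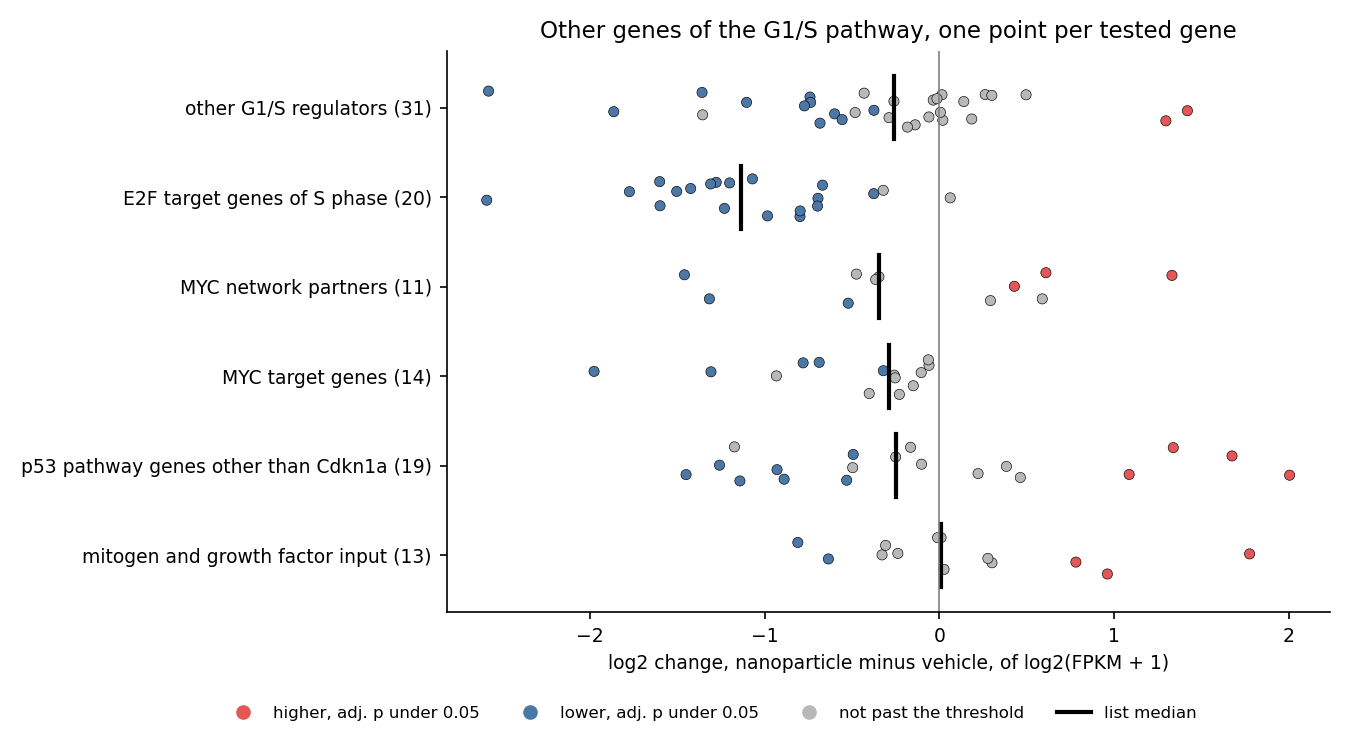
Log2 change, nanoparticle minus vehicle, of each tested gene in 6 lists of the pathway (number tested in brackets), coloured by call, with the list median as a bar. The S phase list lies almost wholly left of 0, with 18 of 20 genes lower, while the p53 list spreads to both sides.

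Genes with the most similar profile over the 6 libraries were looked up for each member by Pearson correlation of log2(FPKM + 1), as a description of 6 points that share a group difference. Cdkn1a was most like Ccl4, a chemokine gene (r = 0.9997), and Atp6v1e1, a proton pump subunit (0.9996). Ccnd2 was most like Pgm2 (0.9994) and Stk4 (0.9991), and Ccnd3 like Hmgb1 (0.9989) and Cysltr1 (0.9988). Ccnd1 was nearest to Arhgef1 (0.9986) and Mrpl42 (0.9976), and Cdk4 to Gm5786 (0.9984) and Scp2 (0.9982). Myc was nearest to Adssl1 and Scd2 (0.9994 each), and Cdkn2c to Aaas (0.9990) and the mitotic gene Cdca8 (0.9988). Ccne1 was nearest to Rcor1 (0.9988) and Dhx32 (0.9963), Cdk6 to Ptpn4 (0.9958) and Phactr4 (0.9941), and Cdkn1b to Usp15 (0.9963) and Nrg1 (0.9953). How common such values are differed: 145 tested genes reached an r above 0.99 with Myc, 115 with Ccnd2 and 113 with Cdkn1a, but 10 with Cdkn1b, 7 with Ccne1 and 6 with Cdk6. Within the 10 genes, Ccnd2 and Ccnd3 ran opposite to each other over the 6 libraries, and so did Ccnd1 and Cdkn1b (r = -0.99). Nanoparticle library 1 held the extreme value in each of these genes, and the correlations were not computed without it.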

How the data were processed

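RNA of mouse bone marrow derived dendritic cells, 3 vehicle and 3 nanoparticle libraries, was sequenced after 12 hours, from 1 µg of total RNA with a NEBNext Ultra II kit, per the labels' protocols. The authors deposited 2 tables whose 140388 values are identical and were read here as FPKM. They relate to gene length and to a scale of each library that did not follow the recovered read totals. That unit was deduced from the values, as no header names it, and how it was computed is not given in the sources used here. STAR 2.5, HTSeq, edgeR 3.16.5 and DESeq2, and the builds mm10 and hg19, are named in the submitters' processing notes, with no role given. With GENCODE M21 exon lengths and 1 scale per library, 95.8% to 96.1% of values above 0 came within 0.01 of whole reads, and so did all values of the 10 genes. Lengths were searched for 242 abundant genes that came out otherwise and found for 232.

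Genes reaching 1 FPKM in 3 or more libraries were tested with limma 3.58.1 in R 4.3.3 on log2(FPKM + 1), a scale that understates changes of low genes, by lmFit and eBayes with a trend and group as the single term. Adjusted p is Benjamini and Hochberg's over all 10682 genes, with a threshold of 0.05. The fit was tested on simulated data that gave both groups the spread of the vehicle libraries. That test did not cover the wider spread between nanoparticle libraries. Sums, shares, promoter motifs and figures were made in Python 3.11.15 with pandas 2.3.3, numpy 2.4.6 and matplotlib 3.10.9. The members and gene lists were chosen with earlier results of these data known. Named genes were the members, up to 4 genes per list with the smallest adjusted p, 10 genes with roles tied to a member, and the 2 genes most correlated with each member. Any further gene was named after its values were seen. Alternatives were pseudocount, filter, scaling, trend, limma-voom, replicate block and each library left out; list counts without nanoparticle library 1 were chosen after seeing the data.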

Additional observations from a re-analysis of the deposited data

How the results depend on the processing

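The falls of Myc and Cdkn2c held under every alternative that tested them. The other 4 calls among the members were lost when any single vehicle library was left out, and the calls of Ccnd2, Ccnd3 and Ccne1 also with no filter or without nanoparticle library 2, and that of Ccne1 without nanoparticle library 3. Across the fits that left out 1 library, members called ran from 2 to 9, with 0 to 3 higher and 2 to 6 lower. Genes called ran from 2141 to 6923, with 1114 to 3660 higher and 1027 to 3263 lower. With no filter, 3 members passed, 1 higher and 2 lower. A mean of at least 5 FPKM, which tests fewer genes, left 2198 genes called, 790 of them lower, and did not test Cdkn1b and Cdkn2c. Equal sums of FPKM gave 863 higher and 4420 lower genes, read totals 1097 and 3694, and limma-voom 1077 and 3669. In each of these 3 fits 0 members were called higher, and the median of all genes was -0.39, -0.29 and -0.35. In the same fits E2f1 changed sign, at -0.41, -0.29 and -0.33, as it did without vehicle library 2 (-0.0012) and without nanoparticle library 1 (-0.10); leaving out 1 library placed it between -0.10 and 0.10. Max changed sign with equal sums (-0.0217).

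Correlations could not settle whether the replicate numbers pair the libraries. Same-numbered libraries correlated at 0.07, 0.11 and -0.06 in their deviations from the group means. Vehicle libraries 1 and 2 correlated best with their own number, and vehicle library 3 did not. With 3 libraries per group, the deviations within a group depend on each other. A fit with the replicate number as a block called 2785 genes, with 5 of the members, Ccne1 being lost (limma adjusted p = 0.0901). Depth limits Cdkn2c most, with 13 reads in nanoparticle library 1.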
